A study of Hymenochirus boettgeri with 8 samples.

Results

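This report describes 34 abundant genes of the dwarf clawed frog Hymenochirus boettgeri. From the unfertilized egg to the swimming tadpole, each kept its share of the sequenced transcripts within a narrow range. The 34 were chosen from 145306 assembly genes, groups of assembled transcripts that share an identifier. A gene's level is the summed TPM of its transcripts, where TPM is a share of all transcripts in a library, scaled for length. A steady gene had at least 50 TPM in all 8 libraries, and its highest library was less than 3 times its lowest. The rule allowed up to 300 genes, a limit that was not reached.

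Wild-type animals were sampled whole at 4 stages, and poly-A RNA of each stage was sequenced in 2 libraries. The stages were the unfertilized egg, the 8-cell embryo, the embryo at stage 26 of the Nieuwkoop and Faber (NF) scale, and the swimming tadpole. No treatment or mutant was part of the design. The labels give neither the number of animals in a library nor the clutch, so the spread behind each p-value may be that of technical repeats.

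A frog egg is loaded by the mother with RNA that serves the embryo through the cleavage divisions, while its own genome is largely silent. After the midblastula transition the embryo transcribes its own genes, and much of the maternal RNA is degraded. Some RNAs are stored in the egg and are also made by the embryo. Genes used by nearly all cells, for protein synthesis or energy supply for example, are the usual ones thought of in this class. The table pairs no identifier with a gene name, so which functions the 34 genes serve was not determined here, and the stage labels could not be checked against marker genes. Members are given by identifier, and only the few that fit a stated rule or that a result turns on.

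Steady genes were a minority of the abundant ones. At least 50 TPM in every library was reached by 343 genes, of which 34 (9.91%) met the limit of 3 times and 309 did not. The median ratio of highest to lowest library was 2.63 in the steady genes and 7.50 in the other 309. Of the 309, 82 had a ratio below 5, 111 lay between 5 and 10, and 116 reached 10 or more, up to 335. Within the steady group, 3 genes had a ratio below 2, 8 lay between 2 and 2.5, and 23 lay at 2.5 or more. The narrowest gene ranged 1.91-fold. These values chose the genes and are given as a description with no test.

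**Figure D1:**
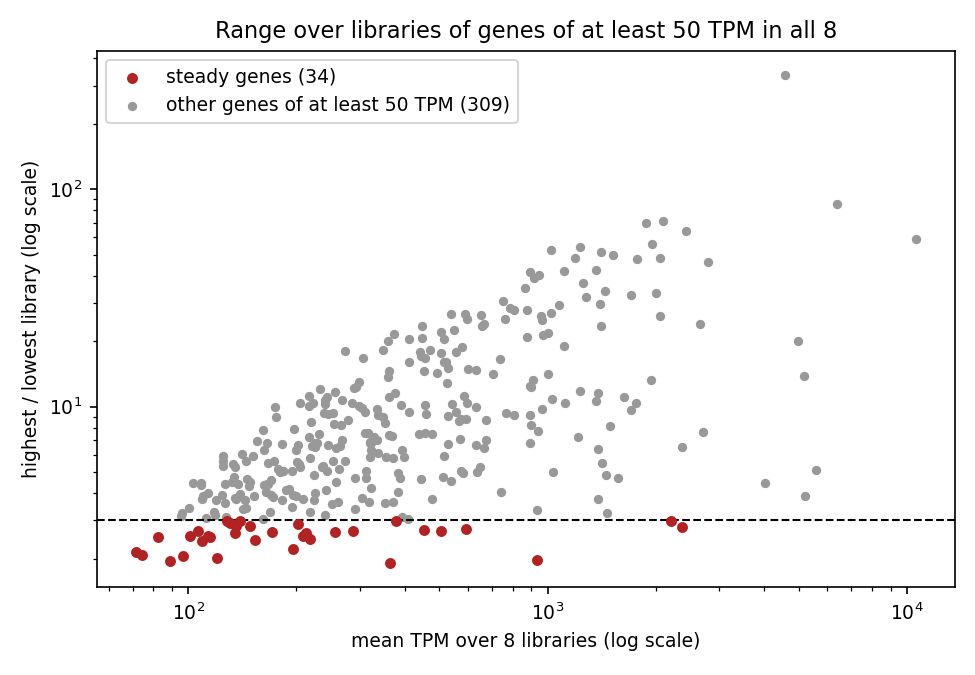
Each point is a gene with at least 50 TPM in all 8 libraries, placed by its mean TPM over the libraries (horizontal log axis) and its ratio of highest to lowest library (vertical log axis). The dashed line marks 3 times: the 34 steady genes lie below it, mostly between 2.5 and 3, and the other 309 reach up to 335.

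No gap in the ratio set the steady genes apart at the limit. The member just inside was c133152_g2, at a ratio of 2.99, between 70.4 TPM in stage 26 replicate 1 and 210.6 TPM in egg replicate 2. The next was c79898_g1, also at 2.99, between 207.8 TPM in tadpole replicate 2 and 620 TPM in egg replicate 1. Just outside were c5330_g1 (3.04) and c140739_g1 (3.05). At the limit of 50 TPM, the lowest members were c80717_g2, with 51.5 TPM in tadpole replicate 1, and c45413_g1, with 54.7 TPM in tadpole replicate 2. Just below it lay c129185_g5, with a lowest library of 47.7 TPM, and c120409_g2, with 47.6 TPM and a ratio of 1.41. In all, 992 more genes stayed within 3 times at a lower level, out of 37181 genes above 0 in every library.

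The steady genes spanned a wide range of levels. Their means over the 8 libraries ran from 71.4 to 2365 TPM, with a median of 151 TPM, against a median of 363 TPM in the other 309 genes. Only 2 had a mean of at least 1000 TPM, 12 lay between 200 and 1000 TPM, and 20 lay below 200 TPM. In every library the group held 24 to 29 genes at 100 TPM or more. Among the libraries, the highest-ranked steady gene stood between rank 8 (tadpole replicate 2) and rank 77 (egg replicate 2) of all genes.

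The 2 most abundant members were single-transcript genes whose replicates of 1 stage differed up to 2.73-fold and 2.98-fold. Gene c164876_g1 had 3436 and 1261 TPM in eggs, 2998 and 2343 TPM in 8-cell embryos, 1560 and 2305 TPM at stage 26, and 1507 and 3513 TPM in tadpoles. Its lowest library was an egg library and the other egg library was its second highest, so the egg libraries enclosed all libraries but tadpole replicate 2. Gene c164883_g1 had 4010 and 1343 TPM in eggs, 1655 and 3049 TPM in 8-cell embryos, 1926 and 1691 TPM at stage 26, and 1499 and 2467 TPM in tadpoles. Here the highest and the lowest of the 8 libraries were the 2 egg replicates. Together these genes made up between 26.8% and 48.5% of the summed TPM of the 34.

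The 2 narrowest members lay lower. Gene c128122_g2 had 563 and 326 TPM in eggs, 295 and 365 TPM in 8-cell embryos, 311 and 344 TPM at stage 26, and 354 and 349 TPM in tadpoles. Without egg replicate 1, which stood above the rest, its other 7 libraries lay between 295 and 365 TPM. Gene c134770_g1 had 121 and 71.2 TPM in eggs, 103 and 62.1 TPM in 8-cell embryos, 108 and 103 TPM at stage 26, and 72.5 and 70.1 TPM in tadpoles. The replicates of its stage 26 and tadpole libraries were close, and those of the egg and 8-cell stages were not.

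**Figure D2:**
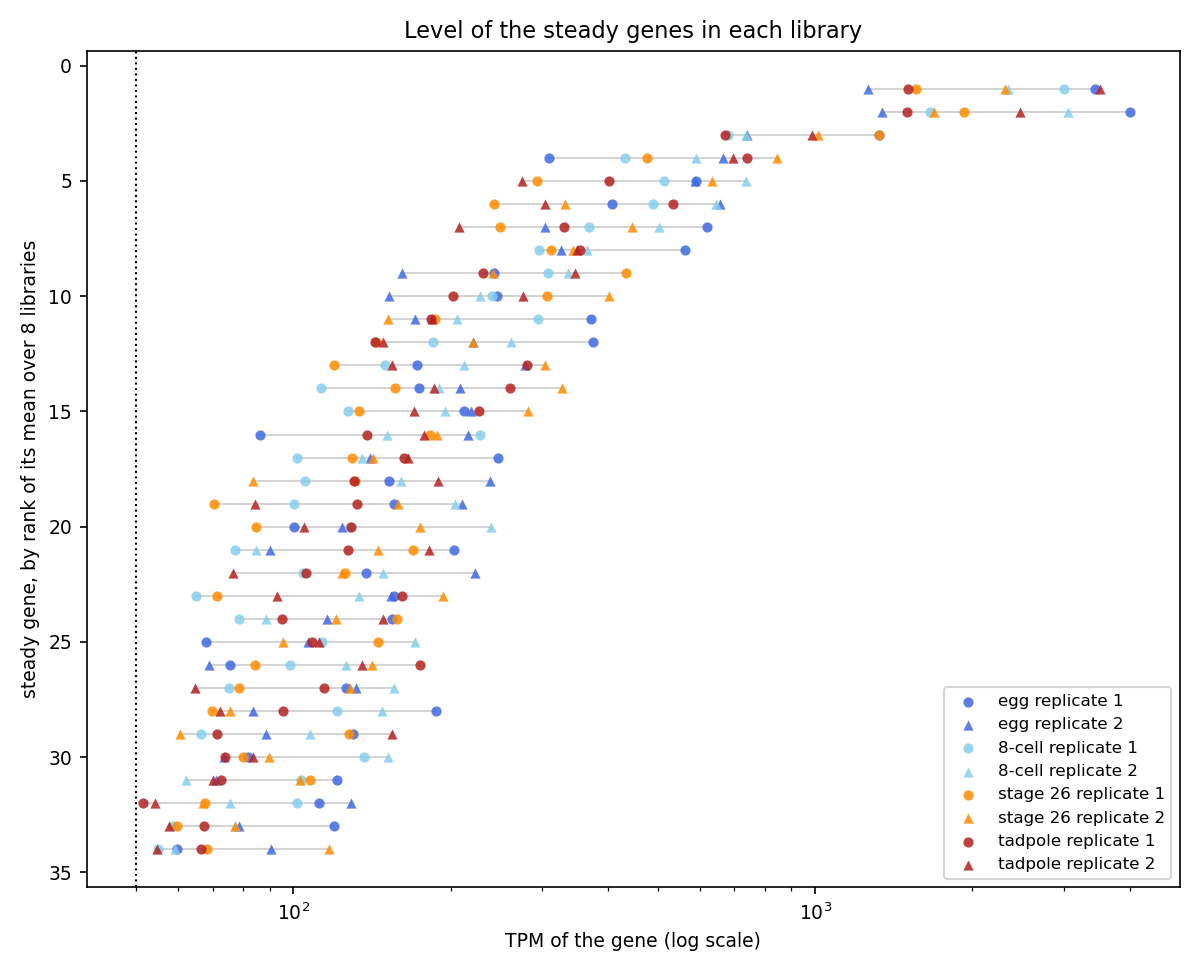
Each row is 1 of the 34 steady genes, ordered from the highest mean (top) to the lowest; each point is its TPM in 1 library on a log axis, coloured by stage, with circles for replicate 1 and triangles for replicate 2, and a grey line from the lowest to the highest. The dotted line marks 50 TPM; points of the 4 stages are intermixed along most rows, and in 2 rows the ends are the 2 replicates of 1 stage.

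As a group the steady genes held a mean of 1.09% (stage 26) to 1.27% (egg) of the TPM of a library. Their summed level was 12628 ± 4102 TPM in eggs, 11920 ± 1633 TPM in 8-cell embryos, 10846 ± 1378 TPM in stage 26 embryos and 10992 ± 1907 TPM in tadpoles (mean ± SD, n = 2 each). Single libraries ran from 9643 TPM (tadpole replicate 1) to 15529 TPM (egg replicate 1), that is 0.969% to 1.56% of the library. The egg libraries alone, at 15529 and 9728 TPM, enclosed the totals of all other libraries but tadpole replicate 1. Without the 2 most abundant members the totals were 7604, 6898, 7105 and 6499 TPM from egg to tadpole. The other 309 abundant genes took a share that differed more between stages, 28.1% ± 1.82 in eggs, 23.0% ± 0.423 in 8-cell embryos, 20.03% ± 10.57 in stage 26 embryos and 15.2% ± 5.26 in tadpoles (SD, n = 2 each). The 2 stage 26 libraries differed most in this, at 12.6% and 27.5%. The rule limited the range of each steady gene, and the 309 are those that exceeded the limit. The contrast between the groups is thus a description only. In whole embryos, fewer cells of a type and less RNA per cell cannot be told apart, and a steady share is not a steady amount per embryo.

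For most steady genes, the replicates of some stage differed by more than the stage means. The ratio of the highest to the lowest stage mean was 1.64 at the median, from 1.25 to 2.27, and 10 genes lay below 1.5. The largest ratio between the 2 libraries of a stage was 1.92 at the median, from 1.13 to 2.98. It exceeded the ratio of the stage means in 23 of the 34 steady genes, and in 125 (40.5%) of the other 309. This sets the largest of 4 ratios between single libraries against a ratio of means over 2 libraries. The rule also set the range of the 34 and of the 309, so these counts are a description only. In 17 of the 34 the widest pair of replicates was the egg pair, in 11 it was stage 26, in 4 the tadpole and in 2 the 8-cell stage. When the same 2 limits were put on the 4 stage means in place of the 8 libraries, 269 genes met them, a count computed after the data were seen. A mean lies within the range of its libraries, so this change could only keep or add genes.

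**Figure D3:**
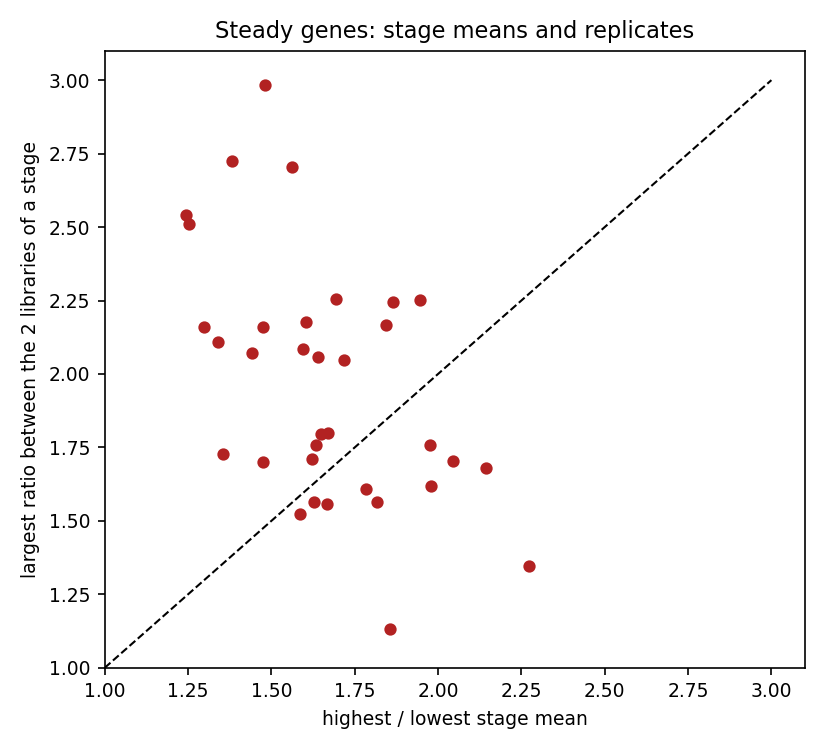
Each point is a steady gene, placed by the ratio of its highest to its lowest stage mean (horizontal axis) and by the largest ratio between the 2 libraries of any 1 stage (vertical axis); both ratios have no unit. The dashed line marks equal ratios, and 23 of the 34 genes lie above it.

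Which library was highest or lowest was uneven. Egg replicate 1 was the highest library for 11 of the 34 genes and stage 26 replicate 2 for 7, while 8-cell replicate 1 was the lowest for 7. Of all libraries, egg replicate 1 had the fewest transcripts above 0, at 69245, against 104166 in egg replicate 2. The median deviation of the steady genes from their own mean over libraries was 0.29 in egg replicate 1 and -0.27 in 8-cell replicate 1 (log2 TPM), and lay between these in the other 6. At the 8-cell stage, replicate 2 was above replicate 1 in 28 of the 34 genes and in 188 of the other 309. In 22 of the 34, stage 26 replicate 2 was above replicate 1. Tadpole replicate 1 was above replicate 2 in 18, and both held in 16. In the other 309 genes these counts were 243, 224 and 215. Neither held in 10 of the 34 and in 57 of the 309. A crossed order of the late replicates, with both or neither holding, was thus seen in most genes of each group. The part of these library differences in the choice of members was not tested.

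Between the late stages (stage 26 and tadpole) and the early ones (egg and 8-cell), the steady genes lay on either side of 0. The rule bounded how far from 0 a gene could lie, and not on which side. The difference between stage means of log2(TPM + 1) had a median of -0.073 over the 34 genes, with 16 above 0 and 18 below and a range of -0.77 to 0.56. With quantile normalization this median was 0.36. Over all 119072 genes with at least 1 TPM in 2 libraries the median was 0.86, and over the other 309 abundant genes it was -0.52, from -3.94 to 4.82. No steady gene had all 4 late libraries above all 4 early ones, where 29.9% of all genes did. The reverse held for 1 steady gene, where it held for 5.95% of all genes. The rule used these libraries, so nothing is read from those counts.

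That gene was c80717_g2, the member nearest the limit of 50 TPM, picked out here after its values were seen. It had 67.7 and 67.1 TPM at stage 26 and 51.5 and 54.4 TPM in tadpoles, against 111.7 and 129.0 TPM in eggs and 101.5 and 75.5 TPM in 8-cell embryos. It also had the largest ratio of stage means in the group, 2.27, since its egg libraries lay above and its tadpole libraries below those of every other stage.

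Between neighbouring stages, too, the members lay on either side of 0. For 8-cell embryos against eggs the median log2 difference was -0.27, with both 8-cell libraries above both egg libraries in 5 genes (20.5% of all genes) and below in 9 (3.13% of all genes). This median was -0.0016 without 8-cell replicate 1 and -0.45 without 8-cell replicate 2. It was -0.11 without egg replicate 1, -0.30 without egg replicate 2 and -0.95 with median-of-ratios scaling. For stage 26 against the 8-cell stage the median was -0.0022, with 5 genes above (42% of all genes) and 6 below (19.9%). It was 0.39 with median-of-ratios scaling and 0.31 with quantile normalization. For tadpoles against stage 26 the median was -0.055, with 2 genes above (20.4%) and 7 below (14.9%). Without stage 26 replicate 1 it was -0.28. In the other 309 abundant genes the shares above and below were 16.8% and 17.8% for 8-cell against egg. They were 29.4% and 33.3% for stage 26 against 8-cell, and 2.91% and 25.6% for tadpole against stage 26. The rule used these libraries, so nothing is read from the counts of members.

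In a few steady genes both libraries of a stage lay above or below the other 6, again picked out after their values were seen. The margin could be small: c146644_g1 had 78.7 TPM in egg replicate 2 and 77.2 TPM in 8-cell replicate 2. Gene c63067_g1 had 136.8 and 151.8 TPM in 8-cell embryos, against 82.0 and 73.5 TPM in eggs, 80.1 and 89.9 TPM at stage 26 and 74.0 and 83.8 TPM in tadpoles. Its 8-cell libraries lay above all others, as they did in 7.3% of all genes, and its replicates were the closest of the group, within 1.13-fold at every stage. Both egg libraries lay above the other 6 in 2 steady genes (1.06% of all genes) and below them in 1 (7.94%). Both 8-cell libraries lay below the other 6 in 2 (1.14% of all genes). Both stage 26 libraries lay above the others in 1 gene, c52813_g1 (7.63% of all genes), and below in none (1.4%). Both tadpole libraries lay above the others in none (16% of all genes) and below in 1 (3.2%). Among the other 309 abundant genes this last pattern was held by 56 (18.1%).

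The rule used the sum of a gene's transcripts and not their shares. A transcript that changes without an offset also changes the sum, so make-up is not independent of the rule. Comparisons of make-up between the steady genes and other genes are thus a description only. Of the 34 steady genes 20 had a single assembled transcript, 6 had 2 and 8 had 3 or more, up to 8. Several transcripts were thus present in 41.2% of the steady genes, 39.2% of the other 309 and 29.8% of all assembly genes. The 14 steady genes with several transcripts comprised 42 transcripts, of which 16 made up less than 10% of their gene on average. Transcripts of 1 assembly gene can be splice forms, alleles or fragments, and which of these they are was not determined here.

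In most of these 14 genes the same transcript led at all stages. It was the most abundant in all 8 libraries in 12 of the 14 steady genes and in 90 of 121 (74.4%) of the other abundant genes with several transcripts. The main transcript, the one with the highest mean over the libraries, held from 45.6% to 98.6% of the gene, with a median of 78.2%. Make-up was compared between libraries by a distance, the sum of absolute differences in transcript shares times 0.5, in percentage points of the gene. Its median over the 14 genes was 6.63 points between late and early libraries and 6.31 points between replicates, and 9 of the 14 lay further apart between late and early libraries than between replicates. In the 121 other genes the medians were 9.32 and 6.68 points, with 88 (72.7%) further apart between late and early libraries. For neighbouring stages the medians of the steady genes were 6.34 points (8-cell against egg), 4.98 points (stage 26 against 8-cell) and 6.08 points (tadpole against stage 26).

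The share of the main transcript was tested in genes with several transcripts and at least 10 TPM in every library, 848 in all. None of the 14 steady genes passed between late and early stages, where 11.7% of all genes tested did (limma, two-sided moderated test on the log2 ratio of the main transcript to the rest of its gene, Benjamini-Hochberg adjusted p under 0.05). At an unadjusted p under 0.05 there were 3 of the 14 steady genes, against 28.8% of all genes tested. Among the 121 other abundant genes with several transcripts, 10 (8.26%) passed, and 25.6% had an unadjusted p under 0.05 (limma). No steady gene passed between neighbouring stages either. Of all genes, 0% did for 8-cell against egg, 2.12% for stage 26 against 8-cell and 0% for tadpole against stage 26. At an unadjusted p under 0.05 there were 1, 2 and 1 steady genes in these 3 steps (6.72%, 16.4% and 3.18% of all genes). The 14 genes were not tested against this background.

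The smallest adjusted p between late and early stages belonged to c108622_g2. Its main transcript held 90.3% and 97.2% at stage 26 and 96.7% and 91.8% in tadpoles, against 98.8% and 99.4% in eggs and 99.3% and 99.2% in 8-cell embryos. All late libraries lay below all early ones, by a log2 ratio of -2.10 (SE 0.62, adjusted p = 0.0771, limma). The gene's other transcript, i2, had only 0.79 to 2.04 TPM in early libraries, so the ratio depended on the pseudocount. It was -2.71 at 0.1 TPM (adjusted p = 0.0681, limma) and -1.06 at 5 TPM (adjusted p = 0.247, limma). Without stage 26 replicate 2 the adjusted p was 0.0464 (limma), the only alternative under which any steady gene passed this test. The other genes with an unadjusted p under 0.05 were c52813_g1 (log2 ratio -1.03, SE 0.35, adjusted p = 0.111, limma) and c129429_g1 (0.99, SE 0.35, adjusted p = 0.121, limma).

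The test of the main transcript does not see an exchange between the other transcripts of a gene, as was noticed in the third most abundant steady gene, c124995_g3. After this was seen, each transcript with at least 1 TPM in 2 libraries was tested against the rest of its gene, 2573 in all. Of the 42 transcripts of steady genes 5 (11.9%) passed between late and early stages, where 14% of all transcripts tested did. They belonged to 3 of the 14 steady genes (21.4%), where 23.6% of all genes had such a transcript. In the 121 other abundant genes with several transcripts, 11.7% of transcripts passed, in 17.4% of the genes. Of the 5, 2 had a higher and 3 a lower share in the late stages. No transcript of a steady gene passed between neighbouring stages, where 0%, 2.64% and 0.194% of all transcripts did in the 3 steps, in 0%, 5.54% and 0.354% of genes. Unadjusted, 4, 8 and 2 of the 42 had a p under 0.05 in these steps (limma).

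Gene c124995_g3 had 1325 and 1012 TPM at stage 26 and 672 and 986 TPM in tadpoles, against 1327 and 739 TPM in eggs and 679 and 738 TPM in 8-cell embryos. Of this total, its transcript i1 held 20.3% and 0% at stage 26 and 0% and 0.943% in tadpoles, against 45.4% and 54.3% in eggs and 50.9% and 42.8% in 8-cell embryos. The transcript was first or second in each early library and was listed at 0 in stage 26 replicate 2 and tadpole replicate 1. Transcript i3 took the opposite course, with 38.0% and 39.1% at stage 26 and 50.8% and 55.8% in tadpoles, against 3.26% and 14.2% in eggs and 11.3% and 8.45% in 8-cell embryos. Averaged over 4 libraries each, i1 held 5.31% ± 10.001 late and 48.3% ± 5.23 early, and i3 held 45.9% ± 8.75 late and 9.32% ± 4.68 early (SD, n = 4 each). The third transcript, i2, held 48.8% ± 8.74 late and 42.3% ± 9.34 early, so its libraries overlapped. In TPM, i1 had between 0 and 269 in late libraries and between 316 and 602 in early ones, and i3 between 341 and 550 in late and between 43.3 and 105 in early ones. The gene's sum ranged 1.97-fold over the same libraries.

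The test of every transcript was added because this exchange had been seen, and shares of 1 gene depend on each other, so its p-values for i1 and i3 describe the pattern and are no independent support. The log2 ratio of i3 to the rest of the gene was higher by 3.21 in late stages (SE 0.54, adjusted p = 0.0121, limma), and that of i1 fell by 6.88 (SE 1.63, adjusted p = 0.0358, limma). Because i1 was listed at 0 in 2 libraries, its fitted ratio depended on the pseudocount, from -8.58 at 0.1 TPM, where the call was lost (adjusted p = 0.0758, limma), to -5.61 at 5 TPM. The call of i3 was lost when 8-cell replicate 2 was left out (adjusted p = 0.0570, limma) or tadpole replicate 2 (adjusted p = 0.0516, limma). The call of i1 was lost without any 1 egg, 8-cell or tadpole library (adjusted p from 0.0657 to 0.124, limma), and with the replicate number as a block (adjusted p = 0.0519, limma). The directions stayed. In distance of make-up c124995_g3 was the furthest of the 14, at 45.1 points between late and early libraries and 14.3 points between replicates. The assembly lists 2 further genes in its component, the group of sequences the assembler linked. They held between 169 and 841 TPM together, and the component's total stayed within 2.58-fold.

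**Figure D4:**
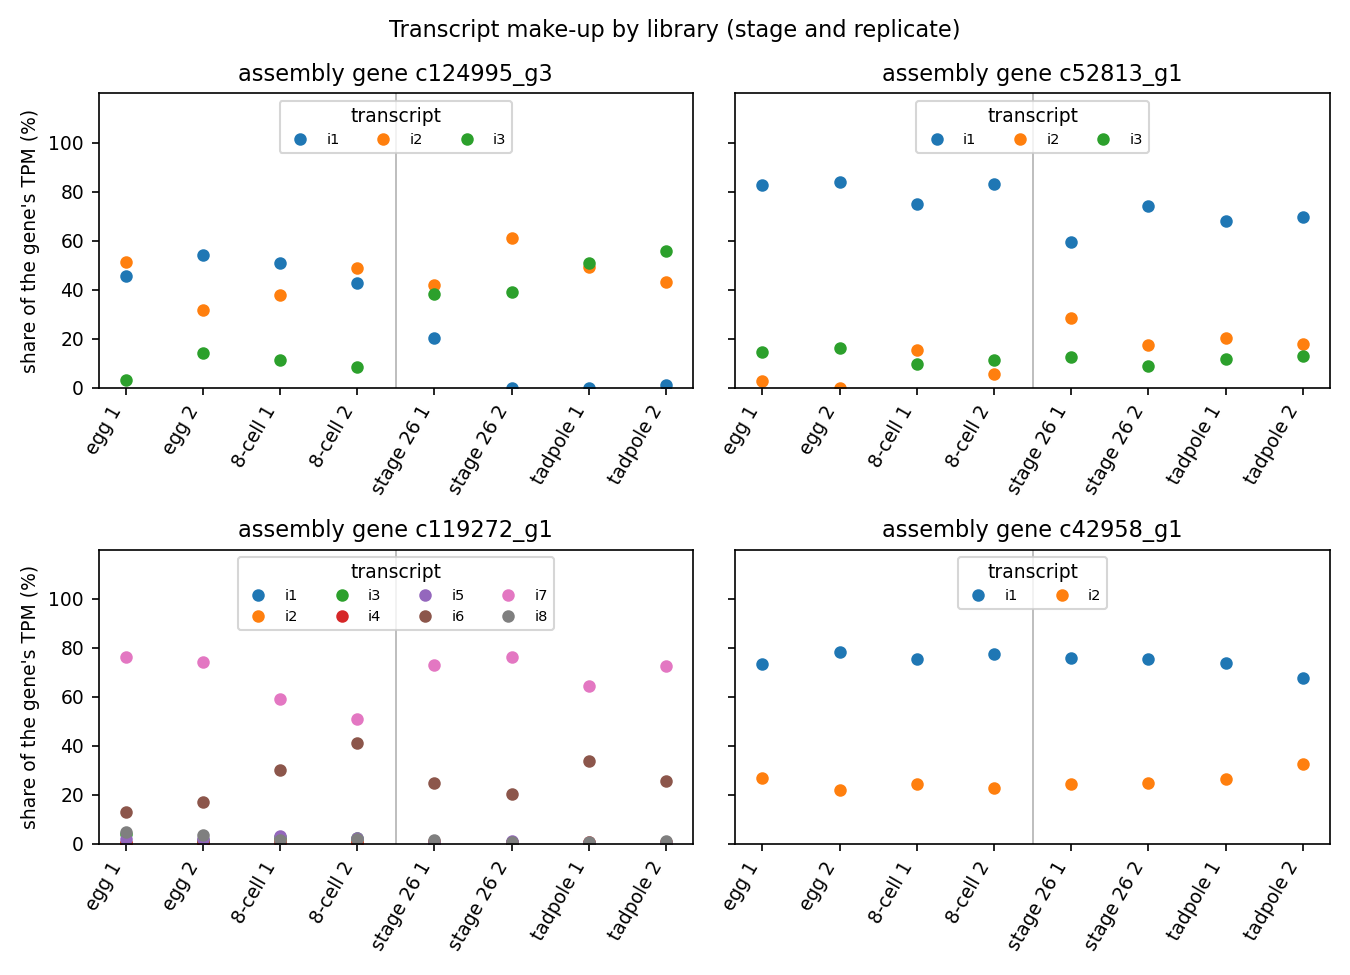
Points give each transcript's share of its gene's TPM (percent) in the 8 libraries, ordered by stage, for 4 steady genes; a vertical line separates the egg and 8-cell libraries from the stage 26 and tadpole libraries. In c124995_g3 transcript i1 lies at 42.8% to 54.3% before the line and at 0% to 20.3% after it while i3 takes the opposite course, and in c42958_g1 the 2 transcripts keep their places.

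The other 3 called transcripts were minor ones. In c52813_g1, transcript i2 held 28.3% and 17.2% at stage 26 and 20.4% and 17.8% in tadpoles, against 2.72% and 0% in eggs and 15.4% and 5.35% in 8-cell embryos. Its late libraries lay above all early ones, by a narrow margin over 8-cell replicate 1 (log2 ratio 2.75, SE 0.65, adjusted p = 0.0358, limma). With a pseudocount of 0.1 TPM this call was lost (adjusted p = 0.1003, limma). In c119272_g1, the steady gene with the most transcripts, i3 held 0.150% ± 0.081 of the gene in late libraries and 2.33% ± 1.33 in early ones (SD, n = 4 each). In TPM, i3 had 0.152 to 0.75 in late libraries, all below the pseudocount of 1, and 0.969 to 9.11 in early ones. Its log2 ratio fell by 2.45 (SE 0.53, adjusted p = 0.0287, limma), and the value depended on the pseudocount, from -3.66 at 0.1 TPM to -1.29 at 5 TPM, where the call was lost (adjusted p = 0.0665, limma). The last of the 5 was another minor transcript of this gene, with a log2 ratio of -1.97 (SE 0.47, adjusted p = 0.0371, limma). It too was low, at 0.499 to 2.49 TPM in late libraries and 3.27 to 10.1 TPM in early ones. Its call was lost with the replicate number as a block (adjusted p = 0.0633, limma), at both other pseudocounts, and without any 1 library other than stage 26 replicate 2. The 2 leading transcripts of that gene did not pass. Without single libraries the number of called transcripts of steady genes was 3 (either egg library), 1 (8-cell replicate 1), 0 (8-cell replicate 2), 2 (stage 26 replicate 1), 6 (stage 26 replicate 2), 1 (tadpole replicate 1) and 0 (tadpole replicate 2), against 5 with all.

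The 2 steady genes with the most even make-up, among those with at least 2 transcripts of over 10%, were c80717_g2 and c42958_g1. In c80717_g2 the main transcript held 82.5% ± 1.49 in late and 84.4% ± 3.89 in early libraries (SD, n = 4 each). In c42958_g1 it held 73.1% ± 3.80 in late and 76.1% ± 2.21 in early libraries. In both genes the late and early libraries overlapped, and the mean distance over all pairs of libraries was 3.42 and 3.64 points. The level of c42958_g1 itself was less even, at 119.5 and 303.8 TPM in the 2 stage 26 libraries, so the share of its transcripts was kept where the level differed 2.54-fold between replicates.

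Of the 34 steady genes 24 were alone in their component and 10 shared it with other genes. In 5 of the 10 the steady gene held over 90% of the component's TPM, and the total of 9 of the 10 components stayed within 3 times. The exception was the component of c129429_g1, in which the member held 23.0% on average beside 6 other genes. Its total ranged 3.11-fold. Reads from near-identical sequences can be split between genes of a component, which may affect the levels of these 10 genes. How far it did was not tested.

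The choice of scale bears on which genes count as steady. With median-of-ratios scaling, which sets the median gene present in all libraries equal between them and divided the libraries by 0.821 to 1.52, 17 genes met the rule, of which 10 were among the 34. With quantile normalization 38 met it, of which 20 were among the 34. The members are thus genes that were steady as a share of the sequenced poly-A transcripts. Relative to the median gene, 24 of them no longer met the rule.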

How the data were processed

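The authors deposited TPM values for 220713 assembled transcripts, estimated by kallisto 0.42.4 (submitters' processing notes), which assigns reads to transcripts without full alignment. How the transcripts were assembled and filtered is not given in the sources used. Libraries were strand-specific and poly-A selected, per the labels' protocols. Columns sum to 991754 to 998506 TPM. Transcripts above 0 numbered 69245 and 104166 in the egg libraries and 108840 and 116393 in the 8-cell libraries. They numbered 167602 and 155589 at stage 26 and 169080 and 170235 in tadpoles. The filter of at least 1 TPM in 2 libraries can be met by late libraries alone. Read depth is unknown, so no counting intervals were computed. Columns were matched to samples by title, and stages came from the source names. The members and tests were chosen with earlier results of these data known.

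TPM were summed per assembly gene with Python 3.11.15, pandas 2.3.3 and numpy 2.4.6. For genes with several transcripts and at least 10 TPM in every library, log2((main transcript + 1)/(rest + 1)) was fitted to all 8 libraries with a mean per stage in limma 3.58.1 (R 4.3.3), with a variance trend, 4 residual and 2.83 prior degrees of freedom. Late against early compares the mean of the stage 26 and tadpole means with that of the egg and 8-cell means. The fit was tested on simulated data, where it missed most of the smallest changes put in and some of the next larger ones. A gene that did not pass is thus not shown to keep its share. Named genes had the highest means, the smallest ratios, the most even make-up or lay at the limits; others are named as chosen after their values were seen. Same-numbered replicates are not known to share a source, so no block was used. Alternatives changed limits, pseudocounts (0.1 and 5), filters, scaling, variance prior and block, and left out each library.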

Additional observations from a re-analysis of the deposited data

How the results depend on the processing

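The number of steady genes, 34, depended on the limits: it was 3 at 2 times, 80 at 4 times, 119 at a minimum of 20 TPM, 16 at 100 TPM, 17 with median-of-ratios scaling, 75 summed per component, and 269 with limits on stage means, the last 2 chosen after seeing the data. Leaving out a library gave 36 (without 8-cell replicate 2) to 75 (without egg replicate 1), and 59 without egg replicate 2. By the form of the rule, leaving out a library or using stage means can only keep or add genes, and all 34 were kept. Without the 2 most abundant members the summed level was 7604 (egg), 6898 (8-cell), 7105 (stage 26) and 6499 TPM (tadpole). Leaving out a library gave 9728 to 15529 TPM in eggs. Quantile normalization moved the median log2 difference of the members to 0.36 (late against early) and 0.31 (stage 26 against 8-cell), and median-of-ratios scaling to -0.95 (8-cell against egg) and 0.39 (stage 26 against 8-cell). Over all genes the late against early median was 0.24 with quantile normalization, against 0.86 as deposited. Leaving out a library, the medians ranged from -0.22 to -0.046 (late against early), -0.45 to -0.0016 (8-cell against egg), -0.20 to 0.14 (stage 26 against 8-cell) and -0.28 to 0.067 (tadpole against stage 26). The cause was not tested.

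The count of steady genes whose main transcript changed its share was 0 in all 4 comparisons under every alternative run, other than 1 late against early without stage 26 replicate 2 (0 to 1 over libraries left out). Testing every transcript counts something else, steady genes with any called transcript, which were 3, each through a transcript other than its main one. The replicate block left the count for the main transcript at 0. Deviations of same-numbered libraries in the log2 ratio of the main transcript to the rest were correlated across genes. The value was -0.38 between stage 26 and tadpoles, and -0.080 to 0.073 between the other pairs of stages. With 2 libraries a stage, these correlations cannot tell whether same-numbered libraries share a source. With crossed numbers, chosen after seeing the data and fitted to stage 26 and tadpoles alone, 2 of 848 genes passed, 0 of them steady, against 0 with the numbers as given. The median distance of make-up ranged from 5.71 to 6.82 points between replicates and 5.55 to 7.37 points between late and early libraries when a library was left out. No alternative turned a called direction. The 5 called transcripts lost their call under some alternatives, with 2 libraries a stage and unknown depth limiting precision.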
